A study of Mus musculus with 24 samples.

Results

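The genes described here encode the enzymes that build purine nucleotides from small precursors. The rule took every row of the raw count table whose mouse symbol is Prps1, Ppat, Gart, Pfas, Paics, Adsl, Atic, Impdh1, Impdh2 or Gmps. It found 10 rows of 55414 genes, and all 10 of the 10 passed the filter on low counts. The study measured RNA from D4M tumours, a mouse melanoma line, in wild-type C57BL/6 mice. Brequinar (BRQ in the labels) is an inhibitor of dihydroorotate dehydrogenase, an enzyme of pyrimidine synthesis. The 4 groups, of 6 tumours each, received BRQ with anti-PD1 antibody (BRQ+PD-1), BRQ with IgG2a antibody (BRQ+IgG2a), anti-PD1 antibody (PD-1) or the IgG2a control antibody (IgG2a), the antibodies by intraperitoneal injection. All groups therefore carried an antibody and the same tumour line; doses, schedule, sex and age are not in the labels.

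Purine bases are assembled on ribose rather than attached to it afterwards. Phosphoribosyl pyrophosphate (PRPP) is the sugar donor, and Prps1 makes it. Ppat commits PRPP to the pathway, Gart, Pfas, Paics and Adsl build the ring, and Atic closes it as inosine monophosphate (IMP). Impdh1 and Impdh2 oxidise IMP towards guanine nucleotides, and Gmps completes GMP. Adsl also acts on the branch to adenine nucleotides. The steps of Gart and Atic draw one-carbon units from folate. In dividing cells, Myc is known to bind the promoters of many of these genes at the E-box, the hexamer CACGTG.

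The promoter table from RefSeq (GRCm38.p6; 250 bases before to 50 after each start) held windows for 9 of the 10 genes, all but Pfas. The E-box CACGTG reads the same on both strands. It occurred in the windows of 3 of these 9 genes (33.3%), against 11.2% of the 11409 genes tested here that had a window, and 7.15% of all 32851 windows. In the pyrimidine genes it occurred in 1 of 7 (14.3%), Nme1. The 3 stretches are shown because they are the only purine windows with this hexamer, which stands in capitals. A match describes the letters and is neither a site nor a cause. The Atic stretch (chr1:71557137-71557166, plus strand) has the hexamer 7 bases before the start. The Paics stretch (chr5:76951087-76951116, plus strand) has it 203 bases before the start, inside an exon of Ppat, which faces Paics. The Impdh2 stretch (chr9:108560314-108560343, plus strand) has it 110 bases before the start. The Atic and Impdh2 stretches also overlap annotated exons of their own genes.
Atic: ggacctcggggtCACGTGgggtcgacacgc
Paics: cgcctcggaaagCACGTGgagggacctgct
Impdh2: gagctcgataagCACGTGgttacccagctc
Impdh1, the purine gene with the largest fold change in BRQ+PD-1 against PD-1, had no E-box in its windows. The 250 bases before one of its annotated starts (chr6:29216365-29216614, minus strand) held 3 GC boxes, shown in capitals and searched as GGGCGG or its reverse complement CCGCCC. The GC box is common: all 9 purine genes with a window had one, as did 65.1% of the 11409 genes.
Impdh1: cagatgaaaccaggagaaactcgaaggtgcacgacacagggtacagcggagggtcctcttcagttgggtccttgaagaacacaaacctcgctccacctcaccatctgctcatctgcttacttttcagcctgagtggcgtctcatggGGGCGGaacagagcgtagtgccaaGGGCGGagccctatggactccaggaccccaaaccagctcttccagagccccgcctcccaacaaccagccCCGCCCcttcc

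Libraries held 19106205 to 34282319 counts, and the purine genes had 505 to 7259 counts in each. Counting error alone gives a coefficient of variation of 1.39 to 3.71% over the 40 sets of 1 gene in 1 group, against 3.63 to 24.5% observed. Values are CPM, counts scaled to a common library size with TMM factors, and each group has 6 tumours. Of the 24 libraries 4 held over 1000 CPM of Acta1, the muscle actin gene: IgG2a replicates 2 and 3, PD-1 replicate 6 and BRQ+IgG2a replicate 4, at 4060 to 14960 CPM against at most 425 CPM in the other 20. None was in BRQ+PD-1. The label was checked against lineage markers: of 7 pigment cell markers 6 averaged under 1 CPM in every group, while the 4 markers of undifferentiated melanoma summed to 1120 to 1800 CPM, most of it Axl, with Ngfr under 1 CPM on average in every group. Keratinocyte markers were at or near 0. Summed T cell markers had medians of 49.8 CPM in BRQ+PD-1, 77.0 CPM in BRQ+IgG2a, 34.6 CPM in PD-1 and 17.7 CPM in IgG2a. In bulk tumour RNA, fewer cells of a type and less RNA per cell cannot be told apart.

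All 10 purine genes were well expressed in every tumour, and their order by level per kilobase was steady. Levels are CPM per kilobase of the longest principal transcript (GENCODE M21), so their order rests on that length. Gmps had a mean of 145 CPM over 8105 bases, and Pfas 46.8 CPM over 6373 bases. Over the 24 tumours, levels per kilobase ran as follows (mean ± SD). Impdh2, the main IMP dehydrogenase of dividing cells, stood at 86.6 ± 9.89 and Paics at 76.3 ± 4.54. Atic stood at 49.0 ± 5.78. Prps1 (22.7 ± 2.57), Impdh1 (20.9 ± 2.75) and Gmps (17.9 ± 1.73) formed a middle group. Adsl (13.8 ± 1.51), Gart (10.5 ± 1.53), Ppat (8.68 ± 1.28) and Pfas (7.34 ± 1.16) were lowest. Ppat, the amidotransferase that limits the rate of the pathway, was thus among the lowest transcripts. Each gene exceeded the next in 21 to 24 of 24 tumours, except that Prps1 exceeded Impdh1 in 16, so these neighbours did not differ beyond their spread. The ratio of the highest to the lowest tumour ran from 1.23 for Paics to 1.92 for Impdh1.

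**Figure D1:**
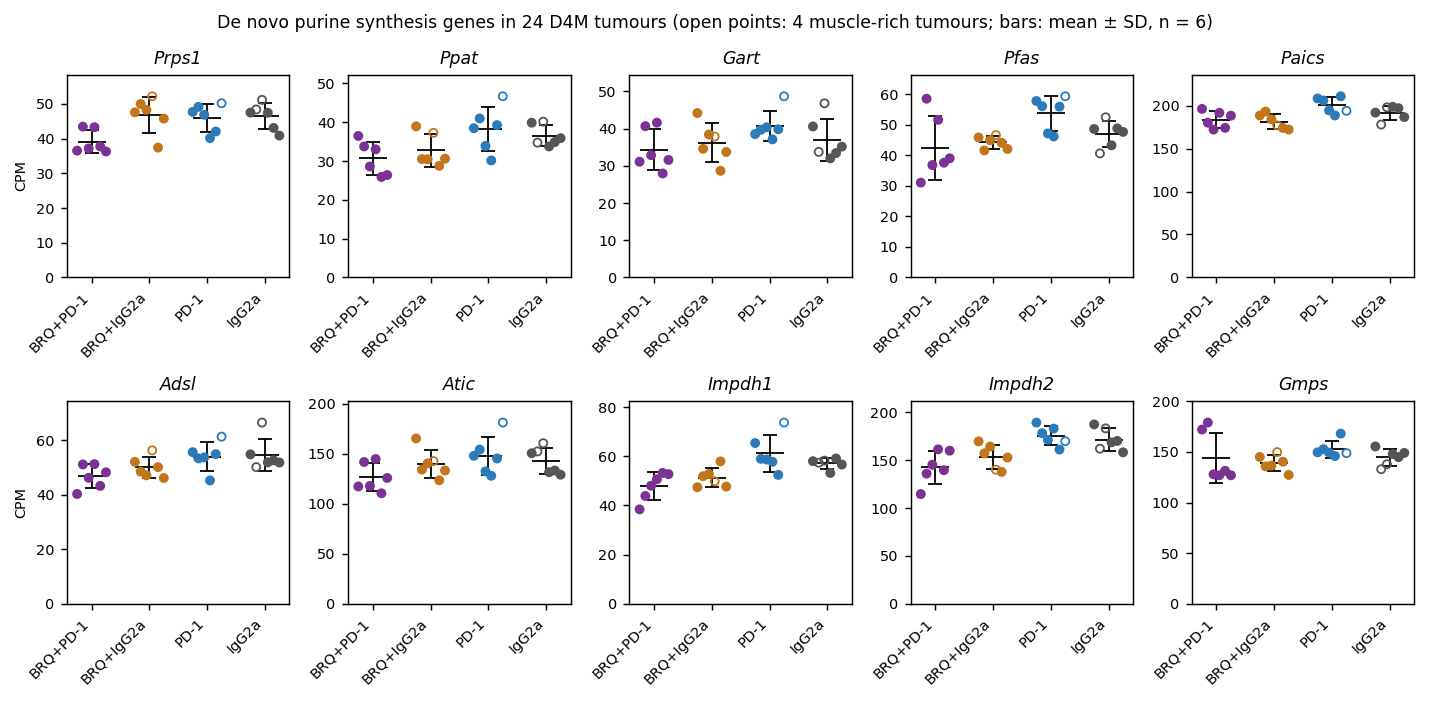
CPM of each purine gene (y axes, from 0) in each tumour of the 4 groups (x axes); points are tumours, open points the 4 muscle-rich ones, and bars the mean ± SD of 6. Impdh1 lay at 38.4 to 53.2 CPM in BRQ+PD-1, against 52.4 to 73.7 CPM in PD-1; the groups overlapped for every gene.

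Averaged over both antibodies, BRQ was accompanied by lower levels of the purine genes: all 10 log2 fold changes were negative, with a median of -0.15, against 0.01 for all genes tested. By edgeR's quasi-likelihood test with Benjamini-Hochberg adjustment over 16029 genes, 3 of the 10 fell (Impdh1, Impdh2 and Ppat), none rose and 7 did not pass. DESeq2 called 5, adding Paics and Adsl, and 14.9 percent of the genes it adjusted. Of all genes tested 12.5 percent were called in either direction, and 5.57 percent fell. An unadjusted p under 0.05 was reached by 6 of the 10 and 27.7 percent of all genes, and 48.8 percent of all genes had a negative value. The largest change, that of Impdh1, was a fall by 16.2%. For none of the 10 did the 12 BRQ tumours stand clear of the other 12, as they did for 0.143 percent of all genes. The interaction of BRQ with anti-PD1 was called by edgeR for 0 of the 10 genes and 0 percent of all genes, with 1 of the 10 and 7.62 percent of all at an unadjusted p under 0.05, and DESeq2 called 0 of the 10 and 0.0592 percent. Its values were negative for all 10, with a median of -0.18, and for 50.5 percent of all genes.

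The guanine branch held both genes that edgeR called in BRQ+PD-1 against PD-1. Impdh1 had 38.4, 49.3 and 53.2 CPM (lowest, median, highest) in BRQ+PD-1, against 52.4, 58.8 and 73.7 CPM in PD-1. All 6 BRQ+PD-1 tumours lay below the PD-1 mean, and the groups overlapped only at the edge. Impdh1 fell by 21.8% (log2 fold change -0.36 ± 0.08 SE, edgeR adjusted p = 0.0158). In this comparison 2 of the 10 purine genes fell and none rose, against 5.04 percent of all genes called in either direction and 2.66 percent fallen. All 10 were negative, as were 48.1 percent of all genes, and 9 of the 10 and 21.4 percent of all had an unadjusted p under 0.05. DESeq2 called 3 of the 10 and 7.93 percent of the genes it adjusted. It added Ppat, which was at the threshold, with a DESeq2 adjusted p that rounds to 0.05. The call of Impdh1 held with each of the 12 tumours left out in turn, but without the muscle-rich tumours the value was -0.30 with an adjusted p of 0.0584 by edgeR, and with the 2 groups fitted alone the adjusted p was 0.0801.

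Impdh2 had 115, 142 and 161 CPM in BRQ+PD-1, against 161, 175 and 189 CPM in PD-1. The highest BRQ+PD-1 tumour met the lowest PD-1 tumour, and the rest did not overlap. Impdh2 fell by 18.7% (log2 fold change -0.30 ± 0.08 SE, edgeR adjusted p = 0.027). Without the muscle-rich tumours it was -0.32 (edgeR adjusted p = 0.0483), but the call was lost without the expression filter (0.0588), with the replicate block (0.0648) and with the 2 groups fitted alone (0.0818). Its adjusted p in edgeR exceeded 0.05 without PD-1 replicate 1 (0.0698), PD-1 replicate 2 (0.0585) or BRQ+PD-1 replicates 1 (0.0576), 2 (0.0519) or 3 (0.0535). BRQ+PD-1 replicate 1 had the lowest level of both Impdh genes.

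In BRQ+IgG2a, Impdh1 had 47.4, 50.8 and 57.9 CPM, against 53.2, 57.7 and 59.1 CPM in IgG2a. Impdh2 had 138, 155 and 170 CPM in BRQ+IgG2a, against 158, 169 and 187 CPM in IgG2a. In 5 of 6 tumours for Impdh1 and 6 of 6 for Impdh2 the BRQ+IgG2a value lay below the IgG2a mean, and the ranges overlapped. The log2 fold change was -0.16 ± 0.08 for each gene, with adjusted p of 0.397 for Impdh1 and 0.335 for Impdh2 by edgeR. edgeR called 0 of the 10 purine genes in this comparison, against 3.46 percent of all genes called and 0.493 percent fallen, and DESeq2 called 0 of the 10 and 4.26 percent of all it adjusted. An unadjusted p under 0.05 was reached by 1 of the 10 and 14.8 percent of all genes. Values were negative for 9 of the 10, with a median of -0.08, and for 51.5 percent of all genes. Over both antibodies, Impdh1 fell by 16.2% (-0.26 ± 0.06, adjusted p = 0.00633) and Impdh2 by 14.7% (-0.23 ± 0.05, adjusted p = 0.00842), with 12 of 12 BRQ tumours below the mean of the tumours without BRQ for each. Both calls, by edgeR, held in all 24 fits that left out a tumour and without the muscle-rich tumours.

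Both Impdh genes fell, and no difference in the balance between them was detected. The log2 ratio of Impdh1 to Impdh2 was -1.58 ± 0.10 in BRQ+PD-1, -1.58 ± 0.20 in BRQ+IgG2a, -1.53 ± 0.17 in PD-1 and -1.59 ± 0.09 in IgG2a (mean ± SD, n = 6 each). The differences in 5 comparisons lay between -0.05 and 0.06, with two-sided exact permutation p of 0.55 to 0.972 and an adjusted p of 0.972 for each. The smallest p that 6 against 6 tumours allow is 0.00216. PD-1 replicate 6 (-1.20) and BRQ+PD-1 replicate 5 (-1.39) stood above the others of their groups.

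Gmps, which follows the Impdh step on the way to GMP, behaved otherwise. It had 127, 130 and 179 CPM in BRQ+PD-1, against 146, 150 and 168 CPM in PD-1. BRQ+PD-1 replicates 1 and 2 were the 2 highest of the 24 tumours, above every PD-1 tumour, and the other 4 lay below every PD-1 tumour. Gmps had a log2 fold change of -0.08 (95% interval -0.25 to 0.09, edgeR adjusted p = 0.603) against PD-1. Over both antibodies it was -0.07 (interval -0.19 to 0.05, adjusted p = 0.462 by edgeR).

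At the entry of the pathway, Ppat had 25.9, 30.8 and 36.5 CPM in BRQ+PD-1 and 28.8, 30.6 and 38.9 CPM in BRQ+IgG2a, against 30.2, 38.9 and 46.7 CPM in PD-1 and 33.8, 35.4 and 40.1 CPM in IgG2a. In 11 of 12 BRQ tumours it lay below the mean of the tumours without BRQ, with overlapping ranges. Ppat fell by 15.2% over both antibodies (log2 fold change -0.24 ± 0.07, edgeR adjusted p = 0.039). This call was at the threshold: it was lost in 11 of 24 fits that left out 1 tumour, with edgeR adjusted p of 0.0506 to 0.0712. Those tumours were IgG2a replicates 1 and 3, PD-1 replicates 1, 2, 5 and 6, BRQ+IgG2a replicates 2, 3 and 6, and BRQ+PD-1 replicates 3 and 6. It was also lost without the muscle-rich tumours (edgeR adjusted p = 0.0686), without the expression filter (0.0526) and with the replicate block (0.0508). Ppat in BRQ+PD-1 against PD-1 was -0.32 ± 0.11 with an edgeR adjusted p of 0.0812, and in BRQ+IgG2a against IgG2a -0.16 ± 0.11 with 0.531.

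Prps1, the PRPP maker, passed in no comparison by edgeR and had its lowest median in the combination group. It had 36.3, 37.5 and 43.5 CPM in BRQ+PD-1, 37.4, 48.0 and 52.2 CPM in BRQ+IgG2a, 40.2, 47.3 and 50.2 CPM in PD-1 and 40.9, 47.5 and 51.2 CPM in IgG2a. All 6 BRQ+PD-1 tumours lay below each of the other 3 group means, but the ranges overlapped. The log2 fold change was -0.26 ± 0.08 against BRQ+IgG2a (edgeR adjusted p = 0.665), -0.24 ± 0.08 against PD-1 (0.0934) and -0.25 ± 0.08 against IgG2a (0.0837), where DESeq2 called it (adjusted p = 0.0412). These 3 comparisons share the BRQ+PD-1 tumours. Prps1 is uncertain, because Prps1l3, a copy of it annotated as a gene of its own, counted 46.9 to 104% of the counts of Prps1, and reads of the 2 may have been split. The summed CPM of the 2 genes was 62.2, 67.6 and 77.7 in BRQ+PD-1, 65.9, 78.2 and 80.5 in BRQ+IgG2a, 69.4, 76.9 and 83.5 in PD-1 and 71.1, 76.3 and 78.8 in IgG2a, so the combination group had the lowest median of the sum too.

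The ring-building genes all had negative values over both antibodies and none passed in edgeR, while DESeq2 called Paics (adjusted p = 0.0208) and Adsl (0.0375). Adsl, the lyase that removes fumarate, was -0.17 ± 0.06 (edgeR adjusted p = 0.0567), Pfas, which inserts an amide nitrogen, -0.21 ± 0.08 (0.0863) and Paics, a carboxylase and ligase in one protein, -0.10 ± 0.04 (0.0759). Gart, a protein with 3 enzyme activities, was -0.14 (95% interval -0.30 to 0.03), and Atic, which closes the ring, -0.13 (interval -0.26 to 0.00). Adsl, Paics and Pfas passed it in some fits with 1 tumour left out: Adsl in 6 of 24, Paics and Pfas in 2 each. Pfas passed without BRQ+PD-1 replicate 2 (edgeR adjusted p = 0.0157) or 4 (0.0465), the 2 tumours where it was highest in that group.

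Pfas showed the widest spread in the combination group. It had 31.0, 38.3 and 58.5 CPM in BRQ+PD-1, against 46.2, 56.0 and 59.3 CPM in PD-1. In BRQ+IgG2a it had 41.6, 44.5 and 46.6 CPM, against 40.6, 48.1 and 52.4 CPM in IgG2a. Most BRQ+PD-1 tumours were low for Pfas, while replicates 2 and 4 reached the PD-1 range. Its log2 fold change against PD-1 was -0.34 ± 0.12 (edgeR adjusted p = 0.0848).

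Paics was the most even gene, at 172, 184 and 196 CPM in BRQ+PD-1, against 189, 200 and 211 CPM in PD-1. All 6 BRQ+PD-1 values lay below the PD-1 mean with ranges that overlapped. The log2 fold change was -0.13 ± 0.05 (edgeR adjusted p = 0.173). Adsl had 40.2, 47.2 and 51.2 CPM in BRQ+PD-1, against 45.2, 54.2 and 61.2 CPM in PD-1 (-0.21 ± 0.08, edgeR adjusted p = 0.137). Atic had 111, 122 and 145 CPM in BRQ+PD-1, against 128, 147 and 181 CPM in PD-1 (-0.23 ± 0.09, edgeR adjusted p = 0.143). For Adsl and Atic too, 6 of 6 BRQ+PD-1 tumours lay below the PD-1 mean. Gart had 27.9, 32.2 and 41.6 CPM in BRQ+PD-1, against 37.1, 39.8 and 48.7 CPM in PD-1 (-0.25 ± 0.11, edgeR adjusted p = 0.212). The antisense or overlapping genes annotated beside Gart, Adsl, Impdh2 and Pfas, and the facing Ppat and Paics, could share reads, since the strand setting is not given in the sources used here.

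With the control antibody none of these genes passed, and each pair of groups overlapped. Adsl had 46.1, 49.2 and 56.2 CPM in BRQ+IgG2a, against 50.1, 52.2 and 66.4 CPM in IgG2a (log2 fold change -0.13 ± 0.08, edgeR adjusted p = 0.511). Paics had 172, 181 and 193 CPM in BRQ+IgG2a, against 178, 195 and 199 CPM in IgG2a (-0.08 ± 0.05, 0.534). For each of these 2 genes 5 of 6 BRQ+IgG2a tumours lay below the IgG2a mean, with overlapping ranges. Atic had 124, 137 and 166 CPM in BRQ+IgG2a, against 129, 142 and 161 CPM in IgG2a (-0.03 ± 0.09, 0.927). Gart had 28.7, 36.2 and 44.2 CPM in BRQ+IgG2a, against 32.0, 34.5 and 46.8 CPM in IgG2a (-0.03 ± 0.11, 0.953), and without the muscle-rich tumours both Atic and Gart were 0.02. Gmps had 127, 139 and 150 CPM in BRQ+IgG2a, against 133, 146 and 155 CPM in IgG2a (-0.06 ± 0.08, 0.826). The interaction, which tests whether the BRQ effect differs between the antibodies, passed for none of these genes, with edgeR adjusted p of 0.763 for Atic, 0.808 for Gart, 0.908 for Adsl, 0.927 for Paics and 0.98 for Gmps.

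No purine gene passed with anti-PD1 alone. In PD-1 against IgG2a the log2 fold changes ran from -0.02 to 0.20 with a median of 0.06, 8 positive and 2 negative. edgeR called 0 of the 10 and 0.0187 percent of all genes, and DESeq2 called 0 of the 10 and 0.172 percent. An unadjusted p under 0.05 was reached by 0 of the 10 and 6.46 percent of all genes, and 50.1 percent of all genes were negative. In BRQ+PD-1 against BRQ+IgG2a the values ran from -0.26 to 0.05 with a median of -0.10, and edgeR called none of the 10 and 0 percent of all genes. There 1 of the 10 (Prps1) and 7.29 percent of all genes had an unadjusted p under 0.05, DESeq2 called 0 of the 10 and 0.00608 percent of all, and 8 of the 10 and 51.9 percent of all genes were negative. In BRQ+PD-1 against IgG2a all 10 were negative, with a median of -0.20, as were 48.6 percent of all genes. edgeR called 0 of them, against 3.91 percent of all genes called and 1.43 percent fallen. An unadjusted p under 0.05 was reached by 5 of the 10 and 23.3 percent of all genes, and DESeq2 called 3 of the 10 (Prps1, Impdh1 and Impdh2) and 8.94 percent of the genes it adjusted. Impdh2 was nearest, at -0.27 ± 0.08 with an edgeR adjusted p of 0.0528. These comparisons share groups with one another, so their values are set side by side only. In none of the pairwise comparisons were the 2 groups clear of each other for any of the 10 genes. Among all genes they were in 1.8 percent for BRQ+IgG2a against IgG2a, 0.493 percent for PD-1 against IgG2a, 2.42 percent for BRQ+PD-1 against IgG2a, 2.86 percent for BRQ+PD-1 against PD-1 and 0.225 percent for BRQ+PD-1 against BRQ+IgG2a.

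**Figure D2:**
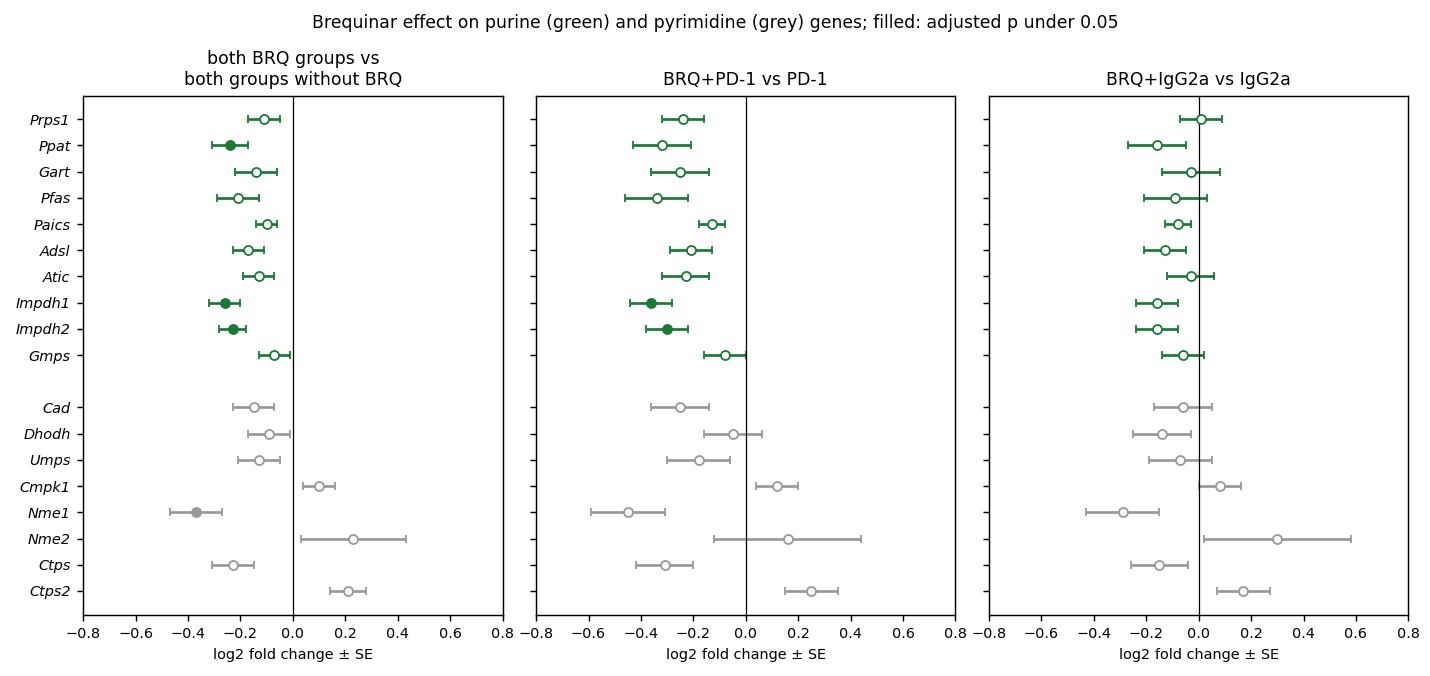
Log2 fold change ± SE (x axes) of the 10 purine genes (green) and the 8 pyrimidine genes (grey) for both BRQ groups against both groups without BRQ, BRQ+PD-1 against PD-1 and BRQ+IgG2a against IgG2a; filled points passed edgeR's adjusted threshold. All 10 purine values are negative in the first 2 panels, while 3 of the 8 pyrimidine values are positive in each. Of these 3, Nme2 had only 20 to 64 counts per tumour.

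Pyrimidine genes, which encode the pathway that BRQ blocks and the steps to CTP, were read beside them. With BRQ+PD-1 set against PD-1, 0 of 8 passed in edgeR, with 4 at an unadjusted p under 0.05 and a median of -0.12, against 2 of 10 and a median of -0.24 for the purine genes. Of all genes 5.04 percent were called there and 21.4 percent reached that unadjusted p. Over both antibodies 1 of 8 fell and none rose, with 5 negative, 3 positive and a median of -0.11, against 3 of 10, 10 negative and a median of -0.15 for the purine genes. Of all genes 5.57 percent fell, 6.91 percent rose and 48.8 percent were negative over both antibodies. No test compared the 2 lists. The pyrimidine gene that fell was Nme1, a nucleoside diphosphate kinase (-0.37 ± 0.10, edgeR adjusted p = 0.0161, and 0.0589 without the muscle-rich tumours). Nme1 is uncertain, because exons of Gm20390 overlap its start region and reads of the 2 may have been shared. Nme2, 1 of the 3 positive values, had only 20 to 64 counts per tumour (0.23 ± 0.20, edgeR adjusted p = 0.477). Dhodh, the enzyme that BRQ inhibits, was -0.09 ± 0.08 (0.472). Cad, which starts the pathway, was -0.15 ± 0.08 (0.20), and Umps, which ends it at UMP, -0.13 ± 0.08 (0.33). Of the 2 CTP synthases, Ctps was -0.23 ± 0.08 (0.0534) and Ctps2 0.21 ± 0.07 (0.0527), so the 2 had opposite signs and neither passed.

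The genes that supply the purine pathway were described from lists of 6 to 14 genes. One-carbon supply, the folate and serine genes, had 5 of 14 fallen over both antibodies, where 5.57 percent of all genes fell. None of the 14 rose, where 6.91 percent of all genes did, and their median was -0.30. Shmt2 (-0.52 ± 0.11, edgeR adjusted p = 0.00267) and Mthfd2 (-0.67 ± 0.16, 0.00809), both mitochondrial, had the lowest adjusted p, and Psph, of serine synthesis, was -0.44 ± 0.12 (0.0225). Without the muscle-rich tumours Shmt2 (0.0149) and Mthfd2 (0.0339) still passed and Psph (0.0855) did not. Shmt2 had 89.2, 114 and 142 CPM in BRQ+PD-1, against 154, 181 and 216 CPM in PD-1, and the groups did not overlap. The same held for 2.86 percent of all genes in this comparison. Shmt2 fell by 0.67 on the log2 scale there (edgeR adjusted p = 0.0124).

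Among the purine regulators, 2 of 6 fell over both antibodies and none rose, where 5.57 percent of all genes fell and 6.91 percent rose. Myc, a transcription factor, had 38.9, 51.0 and 59.5 CPM in BRQ+PD-1, against 72.6, 87.0 and 96.8 CPM in PD-1, and these groups did not overlap. Of all genes 2.86 percent did not overlap in this comparison. Myc fell by 0.79 ± 0.13 on the log2 scale there (edgeR adjusted p = 0.00134) and by 0.56 ± 0.09 over both antibodies (0.000386). Atf4, a regulator of amino acid and one-carbon genes, fell by 0.48 ± 0.14 (0.0272), but not without the muscle-rich tumours (0.0814).

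In PRPP supply and the branch to AMP, 2 of 7 fell over both antibodies and none rose, where 5.57 percent of all genes fell. The 2 were Adss, the AMP branch synthetase (-0.17 ± 0.04, edgeR adjusted p = 0.0161), and Prpsap1, which binds PRPP synthetase (-0.17 ± 0.05, 0.0233). In the pentose phosphate pathway, which makes ribose phosphate, edgeR called 0 of 8, with 1 at an unadjusted p under 0.05. Of all genes 12.5 percent were called and 27.7 percent reached that unadjusted p. The most abundant gene of this pathway by CPM, Tkt, was 0.13 ± 0.08 (edgeR adjusted p = 0.318).

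Salvage and breakdown genes, which reuse and degrade purines, went both ways. Of all genes 5.57 percent fell and 6.91 percent rose over both antibodies. In salvage and transport, 2 of 11 fell and 1 rose over both antibodies: Slc29a2, a nucleoside transporter (-0.54 ± 0.12, edgeR adjusted p = 0.00518), Aprt, which salvages adenine (-0.32 ± 0.08, 0.0109), and Slc29a1, the other equilibrative transporter (0.39 ± 0.11, 0.0244). Without the muscle-rich tumours Aprt did not pass (0.06). Of the 10 breakdown genes tested, 2 rose, where 6.91 percent of all genes did: Xdh, which makes urate (0.57 ± 0.13, edgeR adjusted p = 0.00586), and Entpd1, an ectonucleotidase of immune and endothelial cells (0.47 ± 0.11, 0.00627). Over the same contrast 7 of 8 T cell markers rose (median log2 fold change 1.28) and 2 of 8 macrophage markers rose, against the 6.91 percent of all genes. The part of these cells in the transcript changes was not tested.

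**Figure D3:**
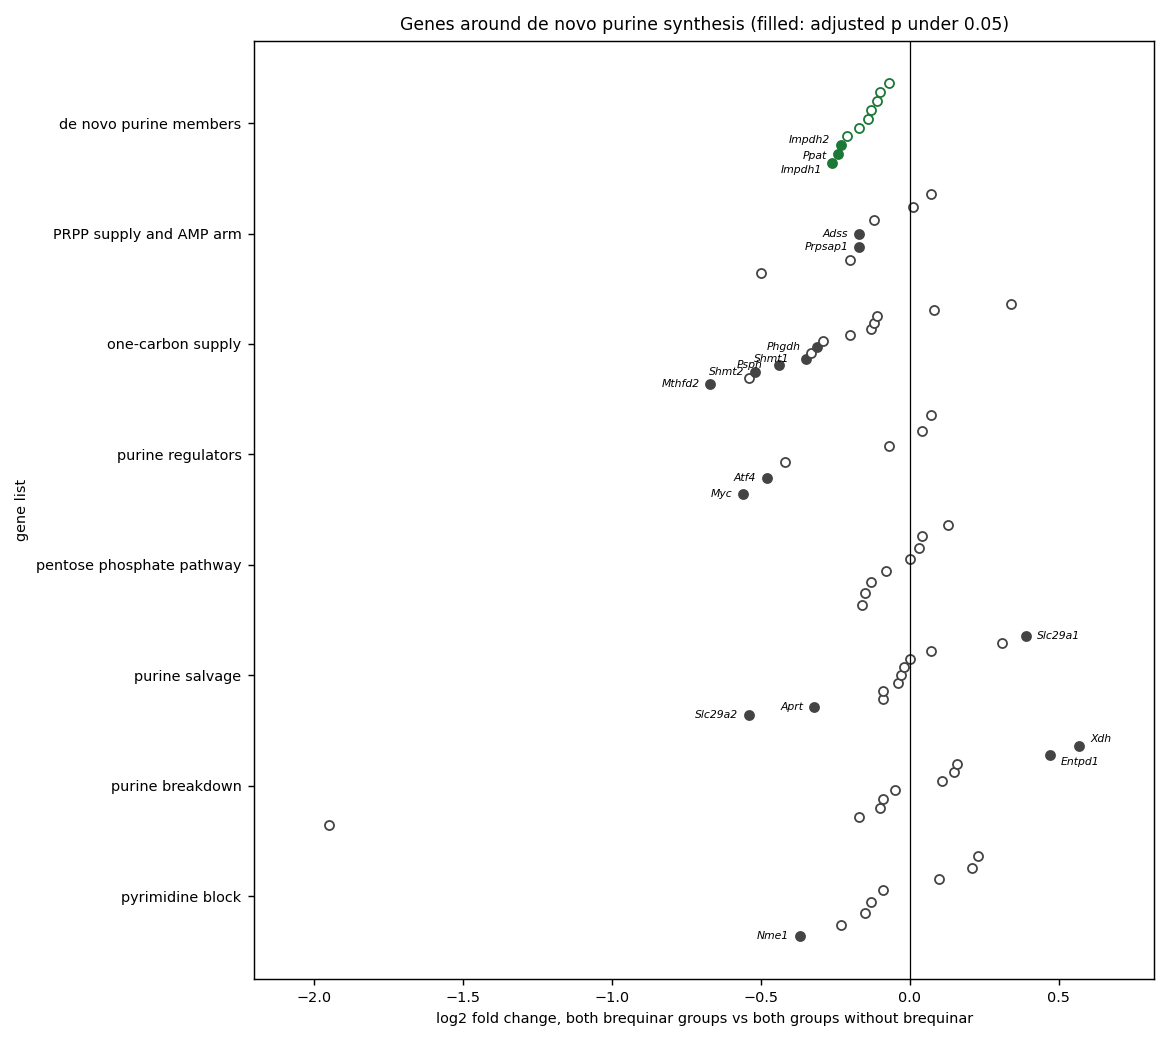
Log2 fold change (x axis) of every tested gene of the 8 lists (rows) for both BRQ groups against both groups without BRQ; filled points passed edgeR's adjusted threshold and carry their symbol. Of the 14 one-carbon genes 5 are filled and below 0, and both called breakdown genes, Xdh at 0.57 and Entpd1 at 0.47, lie above 0. Of all genes tested 5.57 percent fell and 6.91 percent rose.

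Across the 24 tumours, with group means removed, Prps1, Ppat, Gart, Pfas, Adsl and Atic varied together. Of the 45 pairs of purine genes 39 had a positive correlation of log2 CPM, with a median Pearson r of 0.32 and a range of -0.59 to 0.86. By a permutation test of Pearson r within groups (100000 resamples, adjusted over 45 pairs) 15 passed, 14 of them positive. No such share was computed for pairs of other genes, so the counts do not show a trait particular to these genes. Gart and Atic were closest (r = 0.86, rho = 0.79, p = 1e-05 for r, the smallest the resamples can give, permutation adjusted p = 0.00045). Without the 2 tumours farthest from the median of Gart, their r was 0.83. Pfas and Adsl followed with Ppat and Atic, at r = 0.74 and 0.75. Every one of the 14 positive pairs lay among Prps1, Ppat, Gart, Pfas, Adsl and Atic. By the rank correlation rho, Prps1 with Adsl (permutation adjusted p = 0.0537), Ppat with Adsl (0.0537) and Prps1 with Ppat (0.0594) did not pass. Ppat with Pfas passed by rho (permutation adjusted p = 0.0182) and not by r (0.174).

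The guanine-branch genes and Paics stood outside that block. The mean r with the other 9 genes was 0.50 for Atic, 0.49 for Gart, 0.18 for Paics and for Impdh2, 0.02 for Gmps and 0.01 for Impdh1. The 1 negative pair that passed was Impdh1 with Gmps (r = -0.59, rho = -0.50, permutation p = 0.015, adjusted p = 0.045 for r and 0.0776 for rho). Its r was -0.52 without the 2 tumours farthest from the median of Impdh1. Impdh2 with Gmps had r = -0.55 (permutation adjusted p = 0.115 over all 24), and -0.32 without the 2 tumours farthest from the median of Impdh2. Both pairs include BRQ+PD-1 replicates 1 and 2, where Gmps was highest. The tumours left out were chosen by the Impdh gene and not by Gmps. Ppat and Paics, which face each other on chromosome 5, had r = 0.40, and 0.58 without the muscle-rich tumours. Tumours share depth scaling and cell mixture, so these correlations describe the set of tumours.

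**Figure D4:**
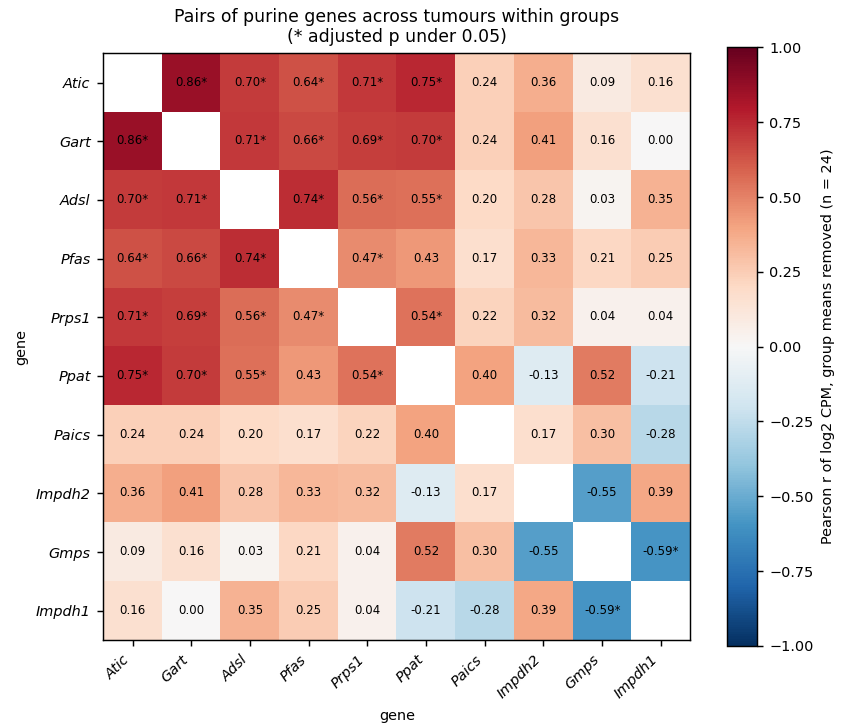
Pearson r of log2 CPM with group means removed, over 24 tumours, for each pair of purine genes (both axes, ordered by mean r); stars mark permutation adjusted p under 0.05. The block of Atic, Gart, Adsl, Pfas, Prps1 and Ppat reaches 0.86, and the lowest value is -0.59 for Impdh1 with Gmps.

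The genes most like the purine set were found by their correlation with the mean standardised log2 CPM of the 10 genes, over 24 tumours with group means removed. Of 12381 genes at a mean of at least 1 CPM, Dkc1, Grk6 and Mthfd1 had r = 0.92, G3bp1 0.91 and Sae1 0.90. Mthfd1, one of these, is a cytosolic enzyme of one-carbon supply. For comparison, Umps had r = 0.79 (rank 43 of the 12381 genes), Shmt2 0.74 (rank 130) and Cad 0.62 (rank 623). Myc had 0.40 (rank 2356), Dhodh 0.28 (rank 3518), Ctps 0.06 (rank 5587) and Atf4 -0.35 (rank 9746).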

How the data were processed

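Total RNA of 24 D4M tumours was sequenced, 6 per group, grouped by the labels' titles. The authors deposited a table of raw read counts per Ensembl gene, used here; their tables of FPKM and TPM were not used. The submitters' processing notes name HISAT2 2.2.1, an aligner, StringTie 2.2.1, an assembler, and Trim Galore 0.6.7, with the build GRCm39. How reads were counted, and whether by strand, is not given in the sources used here. Symbols and transcript lengths came from GENCODE M21.

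Counts were scaled by TMM and filtered by group, and edgeR 4.0.16 quasi-likelihood tests used the 24 libraries in 1 fit on group alone (R 4.3.3). An adjusted p under 0.05 over 16029 genes was a call, and SE is the absolute log2 fold change over the square root of F. DESeq2 1.42.0, limma 3.58.1 voom, other scaling, no filter, a replicate block, the groups alone, tumours left out and the 4 muscle-rich tumours left out were the alternatives. Code was tested on simulated data, in BRQ+IgG2a against IgG2a only and with changes larger than those of the purine genes. It therefore does not show how often changes of their size would be called. Intervals cover 95% and use the t quantile at the fit's total degrees of freedom. Pair and ratio tests permuted tumours (scipy 1.17.1). The named genes were all 10 purine genes, 5 pyrimidine genes, up to 3 called genes of each other list per comparison and the 5 genes most like the set. Members and lists were chosen with earlier results of these data known. Tumours are labelled biological replicates, but the labels do not say whether they came from separate animals; if not, p-values measure only the spread between these samples, which may be technical. Same-numbered tumours had a median r of -0.01 over 36 pairs, with a range of -0.68 to 0.48 and 16 pairs over 0.1. These values cannot settle whether the numbers mark a batch, which the labels do not say. The main fit therefore used no replicate block, and the block is among the alternatives.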

Additional observations from a re-analysis of the deposited data

Results flagged for a closer look

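In 44 sets of 6 tumours, 1 tumour lay far from the rest of its group in 5, and chance gives about 1 in 20 such sets. Gart was 48.7 CPM in PD-1 replicate 6, a muscle-rich tumour, against a next value of 40.4 CPM. Adsl was 66.4 CPM in IgG2a replicate 3, also muscle-rich, against 54.8 CPM. Gmps was 168 CPM in PD-1 replicate 5, against 153 CPM. The log2 ratio of Impdh1 to Impdh2 was -1.39 in BRQ+PD-1 replicate 5, against -1.58, and -1.20 in PD-1 replicate 6, against -1.53. What sets these tumours apart was not tested.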

How the results depend on the processing

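Counting error was less than 0.5 times the observed coefficient of variation in 38 of 40 sets of 1 purine gene in 1 group. The exceptions were Impdh1 in IgG2a and Pfas in BRQ+IgG2a, where the observed coefficient of variation was small (3.63% and 4.56%). In BRQ+PD-1 against IgG2a, edgeR called 0 purine genes, against 1 with relative log expression factors and 3 with DESeq2, and 0 to 1 with a tumour left out. In BRQ+PD-1 against PD-1 it called 2, against 1 without the expression filter, 1 without the muscle-rich tumours, 0 with the 2 groups alone, and 1 to 3 with a tumour left out. With the replicate block it called 1 (Impdh1), while DESeq2 added Ppat, with an adjusted p that rounds to 0.05. Over both antibodies edgeR called 3, against 5 with DESeq2 (Ppat, Paics, Impdh1, Impdh2 and Adsl) and 2 to 5 with a tumour left out. The cause was not tested. The block also ended the call of Ppat over both antibodies (adjusted p = 0.0508) and of Impdh2 in BRQ+PD-1 against PD-1 (0.0648). Without muscle-rich tumours the Impdh log ratio difference of BRQ+PD-1 against PD-1 was 0.01, and the Ppat with Paics correlation was 0.58. With a tumour left out, that correlation ran from 0.30 to 0.51, and the ratio difference ran from -0.09 to 0.01, from -0.03 to 0.03 in BRQ+PD-1 against IgG2a, and from -0.01 to 0.09 in PD-1 against IgG2a.

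Sign changes were seen in values near 0 that passed no test. Without muscle-rich tumours these were Prps1 (0.01) and Umps (-0.03) in PD-1 against IgG2a, Gart (0.02) and Atic (0.02) in BRQ+IgG2a against IgG2a, and Gmps (0.04) and Umps (0.01) in the interaction. With a tumour left out, ranges crossed 0 for Prps1 (-0.02 to 0.07) and Gart (-0.09 to 0.04) in BRQ+IgG2a against IgG2a. In PD-1 against IgG2a they did so for Prps1 (-0.05 to 0.02), Adsl (-0.06 to 0.04), Atic (-0.01 to 0.09) and Ctps (-0.03 to 0.07). In BRQ+PD-1 against BRQ+IgG2a they did so for Pfas (-0.17 to 0.01), Gmps (-0.02 to 0.08), Dhodh (-0.06 to 0.08), Umps (-0.13 to 0.01) and Ctps2 (-0.09 to 0.03). They also did so for Gmps in BRQ+PD-1 against IgG2a (-0.08 to 0.03) and in the interaction (-0.10 to 0.01), and for Dhodh in BRQ+PD-1 against PD-1 (-0.10 to 0.03).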

Other observations

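Gmps fell into separate levels in the combination group, with 172 and 179 CPM in BRQ+PD-1 replicates 1 and 2 and 127 to 131 CPM in the other 4. Impdh1 was lowest in the same 2 tumours. The labels do not separate these tumours from the others of the group.

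Prps1l3, the copy of Prps1, was at 25.2, 27.4 and 38.0 CPM in BRQ+PD-1, 23.4, 28.8 and 31.4 CPM in BRQ+IgG2a, 28.9, 29.7 and 34.3 CPM in PD-1 and 22.7, 29.8 and 34.5 CPM in IgG2a. Its log2 fold change over both antibodies was -0.05 ± 0.08 (edgeR adjusted p = 0.693). Impdh2-ps, annotated as a copy of Impdh2, had 0.873 to 2.94% of its counts.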
